A study of Arabidopsis thaliana with 8 samples.

Results

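Ribosome footprints over the end of the reading frame were examined in 17741 termination windows of *Arabidopsis thaliana*, out of 22416 nuclear transcripts in the series. A window ran from 60 nt before to the last nucleotide of the stop codon, which is position 0, on every nuclear transcript with a coding sequence of 600 nt or more. The last sense codon therefore lay at positions -5 to -3 and the stop codon at -2 to 0. Members were counted from P sites, the place in the ribosome that holds the peptidyl-tRNA, of 28 nt footprints. Over the 8 libraries 6346 windows held at least 1 such P site, and 2576 to 3616 did in a single library. A density is the number of P sites per nucleotide divided by the number per nucleotide from -450 to -150 of the same transcripts. A value of 1 is thus the level inside the reading frame, averaged over all frames.

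The libraries came from inflorescences of 4 genotypes in the Col-0 background, with 2 libraries each. WT carried no mutation, *hot3-2* carried a T-DNA insertion in HOT3, *dcl2 dcl4* carried the insertion alleles *dcl2-1* and *dcl4-2*, and *hot3-2 dcl2 dcl4* carried all of them. All plants grew under the same long-day light regime, and all lysates contained cycloheximide, which halts elongating ribosomes, and were digested with RNase I. The 4 libraries with *hot3-2* are called carriers and the other 4 non-carriers. The labels do not say whether replicates came from separate plants, so p-values measure the spread between these libraries, which may be technical.

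HOT3 encodes eIF5B1, a GTPase of subunit joining at the end of translation initiation, and DCL2 and DCL4 are Dicer-like enzymes that make small interfering RNAs. Termination begins when a stop codon enters the A site while the last sense codon is in the P site. Release factor eRF1 then reads the stop codon, the GTPase eRF3 assists it, the peptide is released, and the ATPase ABCE1, called RLI in plants, splits the ribosome. A ribosome waiting to terminate is thus seen as a footprint with its P site on the last sense codon, and ribosomes queued behind it would lie about a footprint length upstream.

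The stretch of mRNA covered by a terminating ribosome is shown for 8 windows whose footprints differed most plainly in length or position. Each line gives the 29 nt from -17 to 11 nt past the stop codon, 5′ to 3′, with the stop codon in capitals, read from the TAIR10.1 genome and its RefSeq annotation. A 28 nt footprint with its P site at -5 covers the first 28 of these bases, one with its P site at -4 covers the last 28, a 29 nt footprint covers all of them, and a 20 nt footprint covers the first 20.
SLP2: caaatggatacgttgTGAttccgggtcgg
RPS1: tctgcagttgatattTAGattctaaagct
AT5G10770: ccaaacgggtgtagtTAAgttagttaatg
PSAF: attgctaaggatgttTAAaaagggaactt
AlaAT1: gacgagttccgcgacTAAgcattctgttt
RD22: gtgtggttcagctacTAGatagatctgtt
AT5G20740: cacgacgtacatcttTGAtgttaatgcac
MTHFR2: gtgtttgctgatcttTGAgaaaatcaaga
The stop codons lie at 16656929 to 16656931 on chromosome 4 for SLP2 (AT4G34980, minus strand), at 11619262 to 11619264 on chromosome 5 for RPS1 (AT5G30510, minus strand), at 3403331 to 3403333 on chromosome 5 for AT5G10770 (minus strand), and at 11215011 to 11215013 on chromosome 1 for PSAF (AT1G31330, minus strand). Those of AlaAT1 (AT1G17290, plus strand) and RD22 (AT5G25610, minus strand) lie at 5926091 to 5926093 on chromosome 1 and at 8914498 to 8914500 on chromosome 5. Those of AT5G20740 (minus strand) and MTHFR2 (AT2G44160, plus strand) lie at 7025867 to 7025869 on chromosome 5 and at 18265183 to 18265185 on chromosome 2.

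The libraries held 500340 to 1358737 nuclear footprints of 28 nt, of which 14220 to 40261 had a P site in a termination window and 89044 to 248469 in the reference stretch. HOT3 coding-sequence P sites of all lengths numbered 284 and 370 (WT), 306 and 339 (*dcl2 dcl4*), 74 and 69 (*hot3-2*), and 50 and 39 (*hot3-2 dcl2 dcl4*), so they were lower in every carrier than in every non-carrier, also as a share of all coding-sequence P sites. DCL2 and DCL4 had 0 to 3 and 1 to 10 P sites and were too rarely covered to check the labels. The flower organ genes AP3 and PI had 188 to 481 and 303 to 1179 P sites in every library. In each genotype the 2 replicates differed by more than counting error (chi-square per degree of freedom 2.15 to 2.90).

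Windows held fewer 28 nt P sites than the stretch upstream of them. Summed over transcripts, the window density was 0.800 and 0.780 (WT), 0.809 and 0.777 (*hot3-2*), 0.779 and 0.768 (*dcl2 dcl4*), and 0.788 and 0.815 (*hot3-2 dcl2 dcl4*), so no library reached the level of the reference and the genotypes overlapped. Stretches of the same length inside or at the edge of the reference had mean densities between 0.874 for the stretch nearest to the window and 1.13. Density was not even along the window: it was 1.03 to 1.09 from -60 to -46, 0.717 to 0.811 from -45 to -31, 0.630 to 0.682 from -30 to -16 and 0.684 to 0.769 from -15 to -6. In the same 543 genes with a mean of at least 50 reference P sites per library and at least 20 in each, the median window density was 0.270, against 0.505 to 0.701 for the equally long comparison stretches. Of these genes 96 (17.7%) had a window density above 1, against 30.02% to 38.7% for the comparison stretches. The genes were chosen by their reference P sites, which take in the comparison stretches but not the window. Part of both gaps per gene may therefore be set by that choice.

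Reading the last codons in order, a 28 nt footprint was common up to the last sense codon and rare on the stop codon. The density at -5, the first nucleotide of the last sense codon, was 1.96 to 2.54. That was close to the 2.42 to 2.73 at -11 and above the 1.62 to 1.89 at -20. In the reference 89.1% to 91.8% of P sites were in frame 0, so frame 0 nucleotides there lie above 1. Counting frame 0 P sites alone in both, the mean last sense codon density was 0.843 in carriers of *hot3-2* and 0.760 in the other libraries. At -4, which is out of frame, the density relative to all frames was 1.36 to 1.97, so this codon differed from the others of the window in its frame. Frame 1 held 37.7% to 47.7% of the P sites of the last sense codon, whereas 92.5% to 95.1% of the P sites from -59 to -6 were in frame 0. Over all libraries 9402 P sites fell at -5, 6716 at -4 and 169 at -3. The stop codon itself held 9 to 49 P sites per library, a density of 0.00888 to 0.0284.

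**Figure D1:**
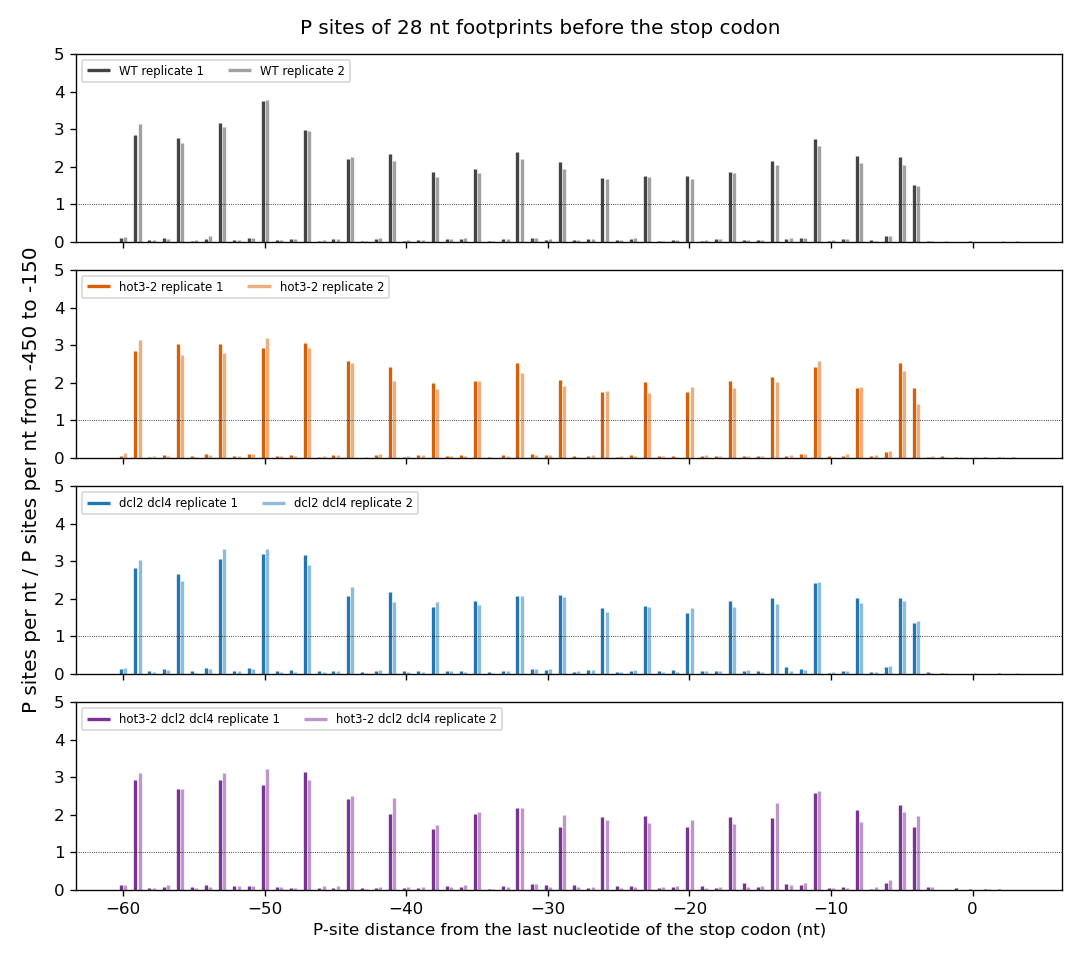
P sites of 28 nt footprints by position, from 60 nt before to 3 nt after the last nucleotide of the stop codon, as density relative to -450 to -150 (dotted line at 1); each panel is a genotype and each bar a library. Tall bars stand on the first nucleotide of each codon, a neighbouring pair stands at -5 and -4 in all 8 libraries, and the stop codon is nearly empty.

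Footprints of other lengths, examined after the 28 nt data had been seen, were concentrated on the last sense codon much more strongly. Their P site was placed 12 nt from the first nucleotide, as the files place it for 28 nt footprints. For 29 nt footprints the files place it 13 nt from the first nucleotide in all libraries. That would put those beginning at -17 at -4 and not at -5. Footprints of 29 nt that began at -17 and ended 11 nt past the stop codon numbered 32933, against 9402 of 28 nt that began at the same nucleotide. Their density relative to 29 nt footprints of the reference was 20.0 and 17.2 (WT), 24.7 and 20.4 (*hot3-2*), 11.9 and 15.0 (*dcl2 dcl4*), and 14.0 and 15.4 (*hot3-2 dcl2 dcl4*). The 4 libraries without *dcl2 dcl4* were the highest, and the groups did not overlap. Footprints of 30 nt peaked 1 nt upstream, beginning at -18, with 9310 footprints and a density of 32.9 to 59.9.

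The right edge of these footprints was shared. The peaks of 26, 27, 29 and 30 nt footprints all ended 11 nt past the stop codon, and so did the 6716 footprints of 28 nt with their P site at -4. Among 27 to 30 nt footprints 52075 ended there, 14425 ended 1 nt earlier and 1206 ended 1 nt later. Footprints of 20 and 21 nt did not share this right edge. Of 20 nt 9321 began at -17, as the 29 nt peak did, and ended 2 nt past the stop codon. Those of 21 nt began at -17 and ended 3 nt past it (4705), or began at -18 and ended 2 nt past it (3578). At the last sense codon 20, 21, 28, 29 and 30 nt footprints made up 9.23% to 15.6%, 8.23% to 14.2%, 18.5% to 23.7%, 40.0% to 46.2% and 8.995% to 16.2% of the 5 lengths. In the reference the same lengths made up 2.30% to 3.77%, 3.23% to 4.05%, 55.7% to 68.4%, 23.1% to 33.6% and 1.98% to 5.16%, so 28 nt was the most common length there and 29 nt at the last sense codon.

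**Figure D2:**
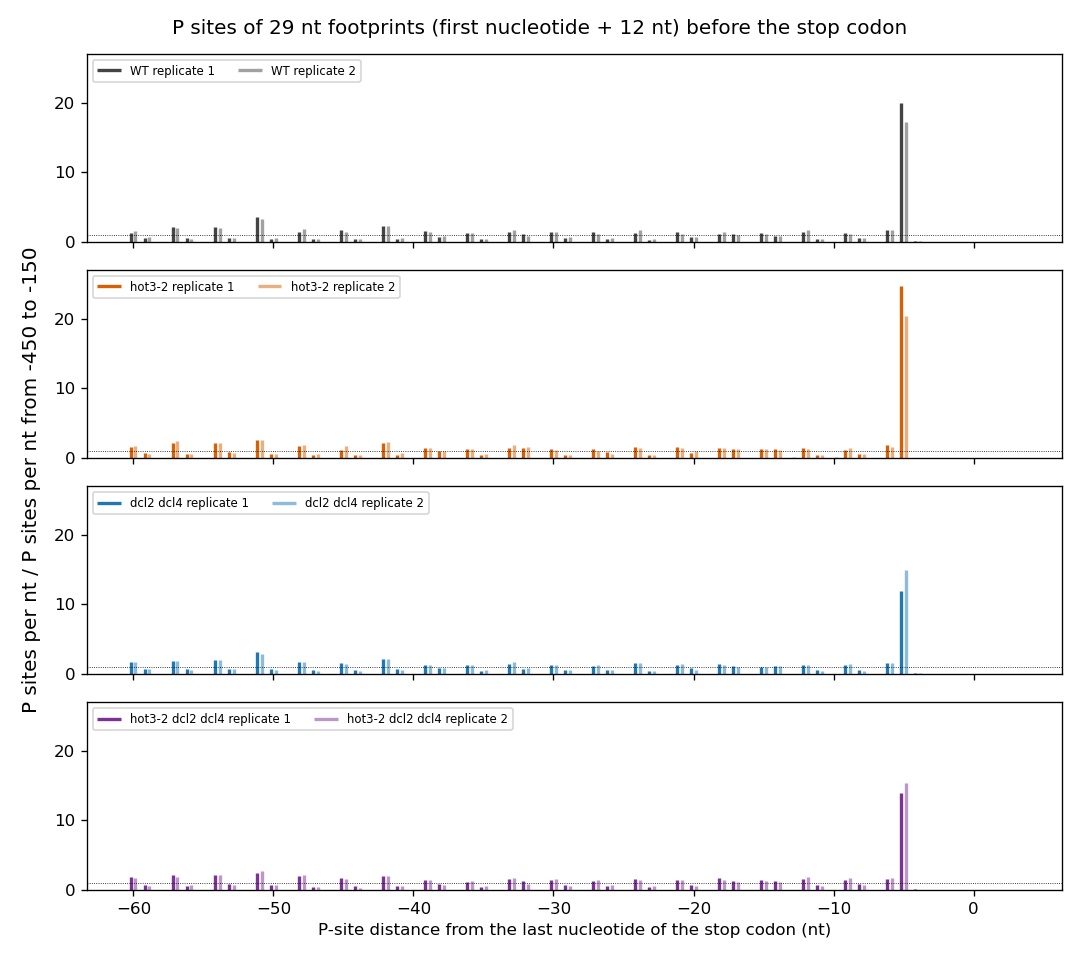
P sites of 29 nt footprints, placed 12 nt from the first nucleotide, by position as density relative to -450 to -150 of 29 nt footprints; each panel is a genotype and each bar a library. A single peak at -5 reaches 11.9 to 24.7 in the 8 libraries.

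Whether disruption of eIF5B1 went with a different ribosome density at the end of the reading frame was asked over libraries, with exact permutation tests over the 70 assignments of 4 and 4 libraries (two-sided, smallest possible p 0.0286). The last sense codon density was 1.26 and 1.19 (WT), 1.48 and 1.26 (*hot3-2*), 1.14 and 1.14 (*dcl2 dcl4*), and 1.34 and 1.38 (*hot3-2 dcl2 dcl4*). All 4 carriers lay above every non-carrier, though the closest pair, WT replicate 1 and *hot3-2* replicate 2, were nearly equal. The mean was 1.37 ± 0.0885 (SD, n = 4) in carriers and 1.18 ± 0.0562 (SD, n = 4) in non-carriers, a ratio of 1.16 (exact permutation p = 0.0286, adjusted p = 0.229 over the 8 library comparisons). The difference did not pass the adjusted threshold. For all footprint lengths with the deposited P sites the ratio was 1.27 (exact permutation p = 0.114). The deposited offset of 20 nt footprints was 12 nt in WT, *hot3-2* and *hot3-2 dcl2 dcl4* replicate 2, and 9 nt in the other libraries. At 9 nt the 20 nt footprints that begin at -17 fall outside the last sense codon, so this ratio mixes genotype with P-site placement.

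The other 28 nt measures did not separate carriers from non-carriers with these settings. The window density was 1.02 times that of non-carriers (0.797 ± 0.0179 against 0.782 ± 0.0133, SD, n = 4 each, exact permutation p = 0.229). Density from -60 to -6 was 1.01 times (exact permutation p = 0.600). At -38 to -32, where a ribosome queued behind a terminating one would have its P site, it was 0.913 ± 0.0404 against 0.882 ± 0.0248 (SD, n = 4 each), a ratio of 1.04 (exact permutation p = 0.286). The stop codon density was 0.0214 ± 0.00838 in carriers and 0.0118 ± 0.00323 in non-carriers (SD, n = 4 each), a ratio of 1.83 (exact permutation p = 0.0857). It rests on few P sites: 22 and 20 (WT), 49 and 29 (*hot3-2*), 23 and 26 (*dcl2 dcl4*), and 23 and 9 (*hot3-2 dcl2 dcl4*), whose second library lay within the non-carriers. As a mean of per-gene densities the stop codon ratio was 0.954. Carriers were all above non-carriers for the window as a mean of per-gene densities (ratio 1.11), and, in coding sequences of 900 nt or more, for the window (1.07), for -60 to -6 (1.06) and for -38 to -32 (1.07), each at an exact permutation p = 0.0286.

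**Figure D3:**
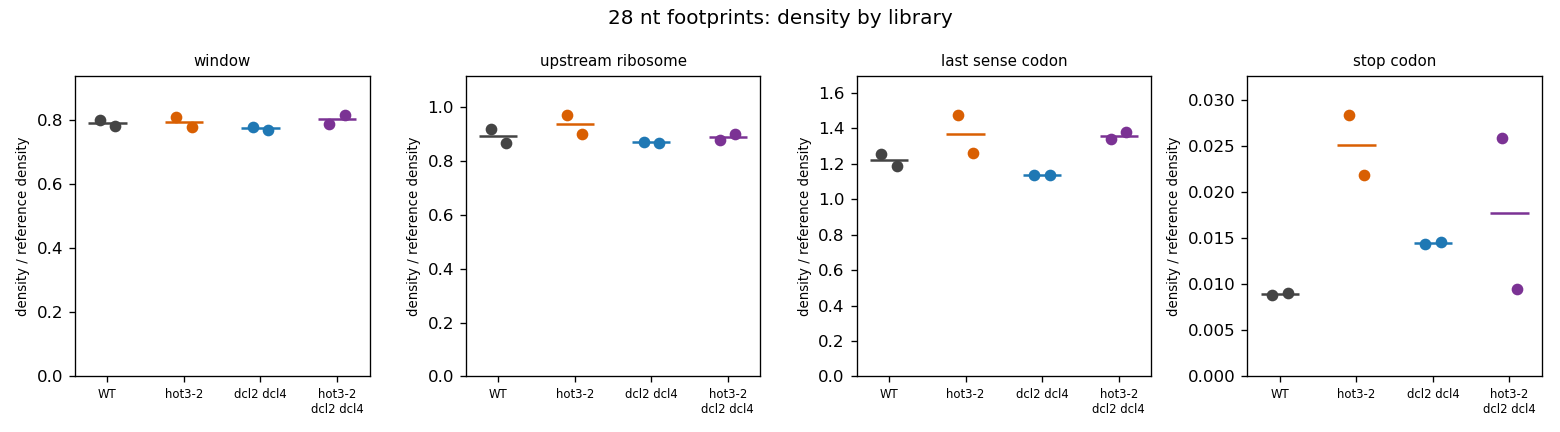
Density of 28 nt P sites relative to -450 to -150 in the window (-60 to 0), at -38 to -32 (upstream ribosome), on the last sense codon and on the stop codon, by genotype; points are libraries (replicate 1 left, 2 right) and lines are means of 2. Carriers sit from 1.26 to 1.48 on the last sense codon and non-carriers from 1.14 to 1.26.

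The mutations *dcl2* and *dcl4* were compared in the same way, 4 libraries with them against 4 without. The ratio was 0.995 for the window (exact permutation p = 0.771), 0.964 for the last sense codon (exact permutation p = 0.600) and 0.961 at -38 to -32 (exact permutation p = 0.229). None passed the threshold, and the groups overlapped in each.

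Among the 20, 21, 28, 29 and 30 nt footprints compared by genotype, those of 20 nt had the largest ratio of carriers to non-carriers. Their density at the last sense codon was 32.1 and 38.0 (WT), 60.9 and 51.1 (*hot3-2*), 34.6 and 35.4 (*dcl2 dcl4*), and 59.5 and 65.7 (*hot3-2 dcl2 dcl4*). Every carrier was above every non-carrier, with means of 59.3 ± 6.06 and 35.0 ± 2.46 (SD, n = 4 each), a ratio of 1.69 (exact permutation p = 0.0286, adjusted p = 0.114 over 24 comparisons of other lengths). Against the 28 nt reference the ratio was 1.56 (exact permutation p = 0.0286). For 21 nt footprints the ratio was 1.46 (exact permutation p = 0.0571), for 29 nt 1.16 (exact permutation p = 0.400) and for 30 nt 1.11 (exact permutation p = 0.514).

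The difference of the 29 and 30 nt peaks with *dcl2 dcl4* depended on the reference. Set against the same length, the ratio of libraries with *dcl2 dcl4* to those without was 0.684 for 29 nt and 0.702 for 30 nt (exact permutation p = 0.0286 for each, adjusted p = 0.114). Against the 28 nt reference the ratios turned to 1.02 (exact permutation p = 0.8286) and 1.55 (exact permutation p = 0.0571). For 21 nt footprints the ratio was 1.59 against the 28 nt reference, with every library with *dcl2 dcl4* above every other (exact permutation p = 0.0286, adjusted p = 0.114), and 1.30 against the same length (exact permutation p = 0.171). The share of 29 nt footprints in the reference moved with them: it was 24.2% and 27.99% in WT and 23.1% and 24.1% in *hot3-2*, and 32.6%, 29.03%, 33.6% and 32.7% in the libraries with *dcl2 dcl4*.

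**Figure D4:**
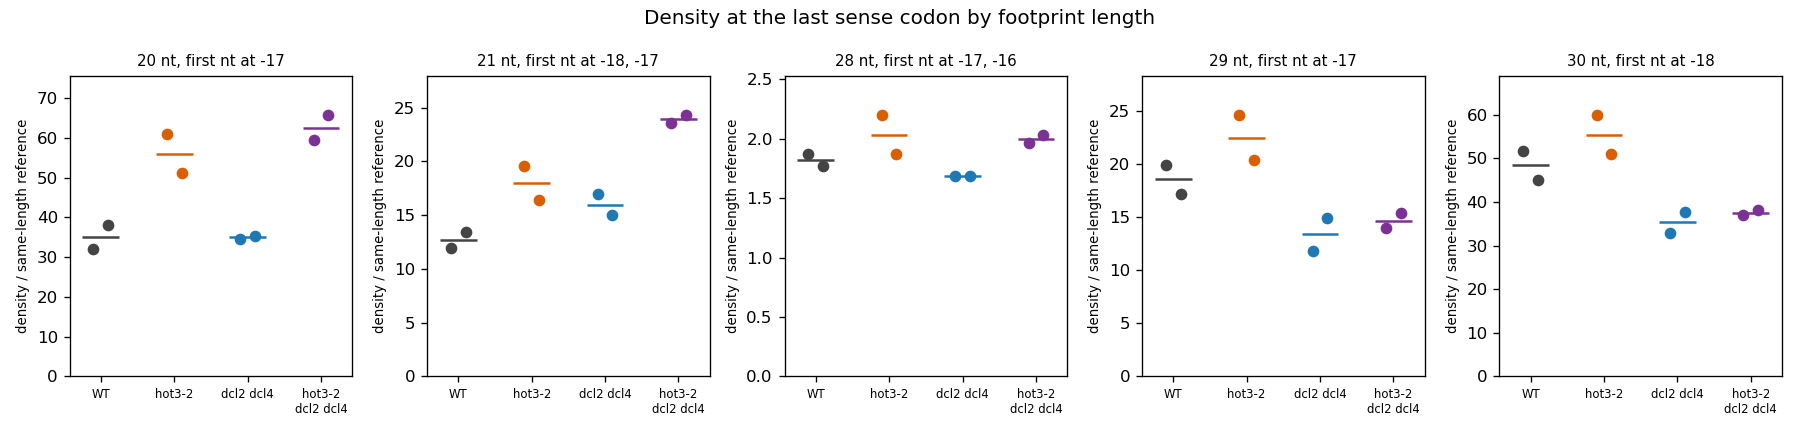
Density of 20, 21, 28, 29 and 30 nt footprints at the last sense codon, by the position of their first nucleotide, relative to footprints of the same length from -450 to -150; points are libraries (replicate 1 left, 2 right) and lines are means of 2. For 20 nt the carriers sit from 51.1 to 65.7 and the non-carriers from 32.1 to 38.0, and for 29 nt the libraries with *dcl2 dcl4* sit from 11.9 to 15.4.

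Coverage of the last sense codon was as sparse as that of other single codons. Among the 543 genes with enough reference P sites, 315 (58.0%) had no 28 nt P site on it in any library, 98 (18.0%) had a mean density above their own reference and 15 were over 10. Of single reference codons of these genes 54.8% had no P site in the 8 libraries, as had 63.2% of the window codons before the last, so the share of empty last sense codons lay between the 2. The shares above the reference and over 10 were not taken for other single codons. Whether they are particular to the last sense codon was therefore not tested. In all, 1484 windows had a 28 nt P site on the last sense codon and 1622 had a 29 nt footprint beginning at -17. The 10 genes with most P sites there held 19.9% of all of them, and the 10 with most 29 nt footprints held 31.5%.

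The 12 genes with the largest last sense codon density were named by that value, which is given as a description. SLP2, a subtilisin-like serine protease, was the highest at 56.3 and 48.9 (WT), 123 and 66.2 (*hot3-2*), 72.7 and 40.8 (*dcl2 dcl4*), and 31.5 and 15.4 (*hot3-2 dcl2 dcl4*). Both *hot3-2* libraries were above both of WT, and those of *hot3-2 dcl2 dcl4* were the lowest. Y14 (AT1G51510), a core protein of the exon junction complex, followed at 16.1 and 11.2 (WT), 25.1 and 36.0 (*hot3-2*), 48.9 and 48.5 (*dcl2 dcl4*), and 41.3 and 76.4 (*hot3-2 dcl2 dcl4*), with both WT libraries the lowest. The aspartyl protease AT5G10770 varied less, from 25.9 to 50.6. The leucine-rich repeat protein AT5G21090 ranged from 12.95 to 76.8 and the alanine aminotransferase AlaAT1 from 4.10 to 47.7.

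The other 7 had mean densities between 13.5 and 21.4. They were the germin-like protein GER1, the photosystem I subunit PSAF, the fasciclin-like cell wall protein FLA2, the terpene synthase TPS10, the plastid ribosomal protein RPS1, the endoplasmic reticulum chaperone CNX1 and the magnesium chelatase subunit CHLI1. The gene just outside had a mean of 11.3. No 28-mer of the windows of these 12 genes occurred in another transcript of the files.

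These genes differed in which base and which footprint length marked the last sense codon. In SLP2 296 of its 298 P sites there were at -5, and in RPS1 141 of 142 were. In AT5G10770 836 of 849 were at -4, and in PSAF 401 of 466. Among 68 genes with at least 20 P sites at these 2 positions, the median share at -4 was 33.2%, 19 genes had under 10% there and 5 had over 90%. The same windows split by length: SLP2 had 12 footprints of 29 nt beginning at -17 and RPS1 had 0, whereas AlaAT1 had 1135, with 692 of 30 nt, against 130 P sites of 28 nt. PSAF had 1446 footprints of 29 nt, and RD22, a dehydration-responsive BURP protein, had 2700 against 338 P sites of 28 nt.

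The 20 nt footprints marked yet other windows, and 6 genes with most of them were looked at after their values were seen. AT5G20740, of the plant invertase and pectin methylesterase inhibitor family, had 796 of the 9321, with 2 P sites of 28 nt on the last sense codon and 0 footprints of 29 nt. Its 20 nt footprints numbered 92 and 91 (WT), 218 and 133 (*hot3-2*), 27 and 59 (*dcl2 dcl4*), and 52 and 124 (*hot3-2 dcl2 dcl4*). MTHFR2, a methylenetetrahydrofolate reductase, had 398 against 7 of 29 nt. The amino acid permease AAP1, the histone methyltransferase homologue SUVH1 and the acyltransferase GPAT6 had 156, 131 and 124, and the cell wall protein FLA8 had 247 of 20 nt with 227 of 29 nt. Of these 6 genes, 5 end in TGA and FLA8 ends in TAA.

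The 28 nt density at the last sense codon was lower before TAA than before TAG or TGA stop codons, and the highest TAA library was below the lowest of either. It was 0.992 (0.812 to 1.23 over libraries) before TAA, 1.44 (1.31 to 1.76) before TAG and 1.51 (1.35 to 1.75) before TGA, in 6251, 3588 and 7873 windows. At -5 it was 1.37 before TAA, against 2.67 and 2.85, and at -4 it was 1.58, 1.58 and 1.61. The TAA value at -4 was 1.16 without AT5G10770, and those of TAG without RD22 and TGA without SLP2 were 1.56 and 1.61. Of genes with enough reference P sites, 29 of 234 with TAA (12.4%), 23 of 102 with TAG (22.5%) and 46 of 206 with TGA (22.3%) exceeded their own reference. Without the window with most P sites in each group the densities were 0.849, 1.32 and 1.45. The 29 nt densities were 13.4 (7.28 to 21.3 over libraries), 25.2 (19.75 to 31.9) and 18.2 (13.7 to 25.2), and these ranges overlapped. Without the window with most 29 nt footprints in each group, RD22 for TAG, they were 11.75, 16.8 and 17.1.

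The 20 nt density was 77.2 (48.6 to 110) before TGA, against 26.5 (17.03 to 37.6) before TAA and 24.0 (15.9 to 33.3) before TAG. The lowest TGA library was thus above the highest of TAA and TAG. Without the 10 windows with most 20 nt footprints in each group the values were 53.4, 18.1 and 13.8. By the base after the stop codon the 20 nt density was 21.5 before A, 56.1 before C, 71.3 before G and 58.3 before T. In each stop codon group every carrier exceeded every non-carrier, at 29.6 to 37.6 against 17.03 to 24.03 for TAA, 24.8 to 33.3 against 15.9 to 22.9 for TAG, and 79.5 to 110 against 48.6 to 59.7 for TGA. The groups share their libraries, and they were not tested against each other.

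By the amino acid of the last sense codon, glycine had the largest 28 nt density at 3.81 (2.63 to 5.42 over libraries), followed by aspartate at 2.11 (1.78 to 2.89). Histidine, tryptophan and alanine had the lowest, at 0.334, 0.406 and 0.527. Without the window with most P sites glycine was at 3.38 and aspartate at 2.05, so neither rested on 1 gene, whereas serine moved from 1.81 to 1.06 without AT5G10770. Glycine and aspartate were also high in 29 nt footprints, at 49.0 and 51.3, and alanine and histidine low, at 4.47 and 3.78. Tryptophan, whose 28 nt value rests on 36 P sites, was at 15.6 in 29 nt footprints, against 17.3 over all windows. Of the P sites at -5 and -4, those at -4 made up 65.4% for serine, 64.1% for proline, 20.9% for leucine and 21.8% for threonine, against 41.7% over all windows. These shares leaned on single genes: without the window with most P sites, an alternative added after seeing the data, they were 39.2% for serine, 50.2% for proline, 25.99% for leucine and 28.7% for threonine.

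Among gene products, the 15 tubulin windows had a 28 nt last sense codon density of 0.220, which was 0.156 without AT5G44340. The 8 actin windows had 0 P sites there among 4350 reference P sites. Windows of 122 ribosomal proteins had 0.765, which was 0.642 without AT5G30510. Those of 24 chlorophyll-binding proteins had 1.48, which was 1.05 without AT2G34420, against 1.27 over all windows. Those of 90 heat shock proteins had 1.16, which was 0.244 without AT5G02500. The 32 proteins ending in the endoplasmic reticulum retention signals HDEL or KDEL had 2.09, which was 0.512 without AT1G77510, and the 101 ending in a peroxisomal signal of the SKL type had 0.662.

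**Figure D5:**
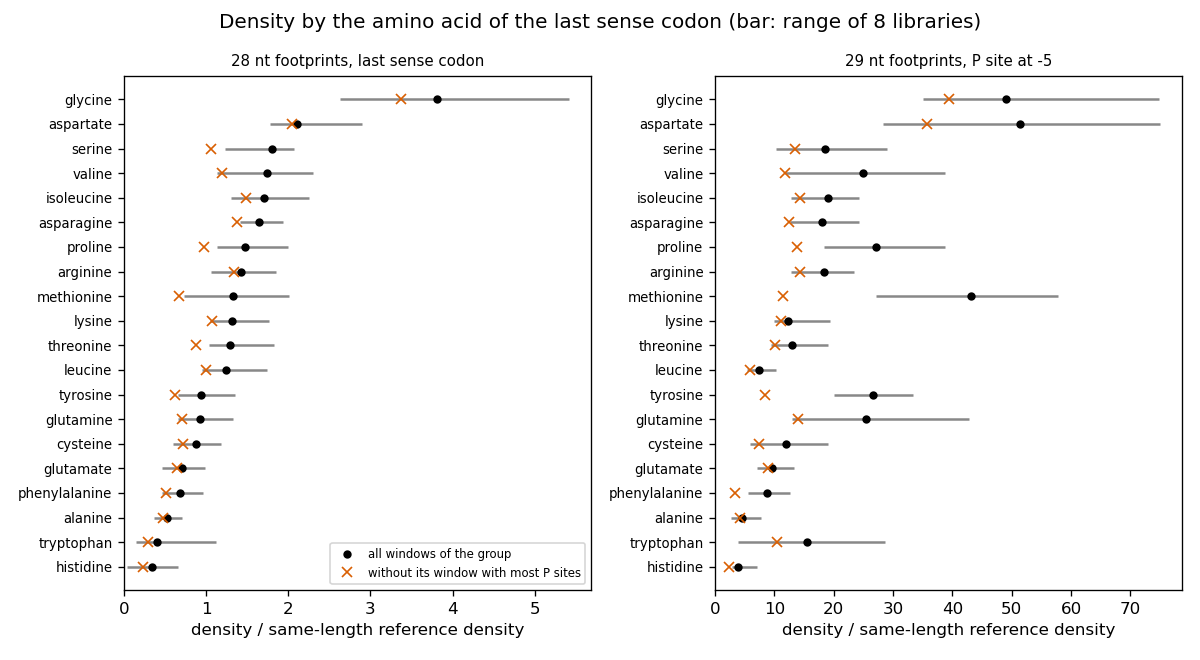
Density at the last sense codon by the amino acid it encodes, for 28 nt footprints (left) and 29 nt footprints (right), relative to the same length from -450 to -150. The 29 nt P sites were placed 12 nt from the first nucleotide and counted at -5. Dots are means of 8 libraries, bars their range, and crosses the mean without the window with most P sites. Glycine and aspartate are high in both panels, and methionine and tyrosine fall most in the right panel without 1 window.

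Upstream of the last codon, single positions of single genes stood out. The density at -38 to -32 was largest in GPAT4, an acyltransferase of cutin synthesis, at 12.4 and 31.3 (WT), 22.6 and 26.9 (*hot3-2*), 18.2 and 24.9 (*dcl2 dcl4*), and 29.4 and 30.5 (*hot3-2 dcl2 dcl4*). It had no 28 nt P site on its last sense codon. The next were the glucanase BG_PPAP at a mean of 11.3, the SNARE protein SEC22 at 9.27, the thaumatin-like AT2G28790 at 8.90 and DRT100 at 8.75, and SEC22 and AT2G28790 also had none on the last sense codon. The light-harvesting protein LHCA4 had 4567 P sites at -50, which were 31.5% of all P sites at that position. LHCA4, the chalcone synthase TT4 and the light-harvesting proteins LHCB6, LHCB3 and CAB1 had the most window P sites, 5027, 3912, 2502, 2448 and 2127, with window densities of 6.28 to 8.76, 6.61 to 11.2, 5.71 to 9.15, 0.628 to 0.915 and 1.64 to 2.91. CAB1 shared 13 of its 61 window 28-mers with other transcripts.

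Single genes were then tested for a change in the share of P sites on the last sense codon, among those there and in the reference, with a quasi-binomial model whose dispersion was moderated by limma. No gene of 111 tested (0%) passed an adjusted p of 0.05 for the mean *hot3-2* effect, and 10 had an unadjusted p under 0.05. The count was also 0 for *hot3-2* set against WT, for the same allele within *dcl2 dcl4* and for the interaction, with 18, 9 and 9 genes at an unadjusted p under 0.05. For the share of P sites in the whole window, 0 of 481 genes (0%) passed for the mean *hot3-2* effect and 0 for the interaction, with 31 and 33 at an unadjusted p under 0.05. In simulated data with 4-fold changes in the odds, the model recovered 43.75% of raised and 14.3% of lowered last sense codon shares. For window shares it recovered 71.4% and 35.5%. Changes of that size could thus be missed, and the counts of 0 do not exclude them. With 26 to 29 nt footprints 3 genes passed for the last sense codon and 15 for the window. The first of these counts mixes genotype with P-site placement, because the deposited offset of 26 nt footprints differs between libraries.

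Between *dcl2 dcl4* and WT the last sense codon share changed in 4 of 111 genes (3.6%), 1 higher (0.901%) and 3 lower (2.7%). PSAF had 19.2% and 23.0% (WT), 21.9% and 17.04% (*hot3-2*), 5.26% and 8.13% (*dcl2 dcl4*), and 9.42% and 12.4% (*hot3-2 dcl2 dcl4*), so all libraries with *dcl2 dcl4* were below all without. Its log2 odds ratio fell by 1.88 (limma-moderated quasi-binomial, adjusted p = 1.58e-06). CNX1 had 15.0% and 20.7% in WT and 7.04% and 2.45% in *dcl2 dcl4* (adjusted p = 0.0249), and its *hot3-2 dcl2 dcl4* libraries were at 19.6% and 10.7%. TPS10 had 18.5% and 19.2% in WT and 6.54% and 1.98% in *dcl2 dcl4* (adjusted p = 0.0464). Y14 was higher, with 13.8% and 10.0% in WT and 32.8% and 32.6% in *dcl2 dcl4* (adjusted p = 0.0499). The calls of Y14 and TPS10 were lost without either library of WT, *dcl2 dcl4* or *hot3-2 dcl2 dcl4*, at adjusted p of 0.0600 to 0.630, and that of CNX1 without WT replicate 2 (0.173) or *dcl2 dcl4* replicate 2 (0.630). SLP2 was the only gene called between *hot3-2 dcl2 dcl4* and *hot3-2* (1 of 111, 0.901%), at 55.0% and 39.7% in *hot3-2* and 23.9% and 13.3% in *hot3-2 dcl2 dcl4* (log2 odds ratio fell by 2.15, adjusted p = 0.0304). That call was lost without *hot3-2* replicate 1 (0.855) or either *hot3-2 dcl2 dcl4* library (0.0925 and 0.712).

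The whole-window share changed between *dcl2 dcl4* and WT in 23 of 481 genes (4.78%), 9 higher (1.87%) and 14 lower (2.91%), and in 7, 12 and 10 without WT replicate 1, *dcl2 dcl4* replicate 1 and *dcl2 dcl4* replicate 2. GER3, a germin-like protein, was at 27.4% and 23.9% in WT and 11.05% and 14.2% in *dcl2 dcl4* (limma-moderated quasi-binomial, adjusted p = 0.000766). GRF2, a 14-3-3 protein, was at 59.3% and 35.1% in WT and 15.0% and 16.8% in *dcl2 dcl4*, and UBQ14, a polyubiquitin whose repeats other ubiquitin genes share, at 19.7% and 14.4% and at 7.03% and 6.18% (adjusted p = 0.000766 for each). Among those that were higher, Y14 was at 23.8% and 33.6% in WT and 64.2% and 56.2% in *dcl2 dcl4*, the anther gene ATA20 at 12.5% and 16.5% and at 27.8% and 39.9%, and the ribosomal protein gene AT1G18540 at 0.328% and 0.612% and at 4.22% and 5.21%. Adjusted p was 0.00248 for Y14 and 0.0106 for ATA20 and AT1G18540. Without WT replicate 1 the calls of Y14, ATA20, AT1G18540 and GRF2 were lost (adjusted p 0.0925 to 0.153), and without *dcl2 dcl4* replicate 2 those of ATA20 (0.295) and AT1G18540 (0.125).

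For 29 nt footprints, added after the data had been seen, 0 of 144 genes (0%) passed for the mean *hot3-2* effect, with 9 at an unadjusted p under 0.05, and 1 (0.694%), FLA8, passed for the interaction. In simulated data with 4-fold changes in the odds, the model recovered 73.1% of raised and 9.09% of lowered 29 nt shares. The FLA8 call was lost in 6 of the 8 fits without 1 library, those without WT replicate 1, either *hot3-2* library, either *dcl2 dcl4* library or *hot3-2 dcl2 dcl4* replicate 1. Between *dcl2 dcl4* and WT 4 of 144 (2.78%) were lower: PSAF, TPS10, FLA8 and CNX1. PSAF was at 67.9% and 69.8% (WT), 71.5% and 68.6% (*hot3-2*), 20.4% and 53.5% (*dcl2 dcl4*), and 38.2% and 41.4% (*hot3-2 dcl2 dcl4*). Its call was lost without *dcl2 dcl4* replicate 1 (limma-moderated quasi-binomial, adjusted p = 0.211), where 2 genes passed in all. The CNX1 call was lost there too, and without WT replicate 1, either *hot3-2* library or *dcl2 dcl4* replicate 2, where 3 genes passed. TPS10 was at 64.3% and 56.9% in WT and 17.3% and 23.7% in *dcl2 dcl4*.

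Translation termination, recycling and surveillance factors were listed to see whether the P sites on their own coding sequences differed. These P sites include the start codon, where the paper reports ribosome stalling in carriers. No mRNA level was used. Whether a difference lay in translation, in stalling at the start codon or in the amount of mRNA was therefore not tested. Of 11 listed, 10 were tested among 13405 genes for coding-sequence P sites of all lengths with limma voom, and 2 were higher in carriers and 0 lower, beside 8.53% of all genes higher and 9.09% lower. The recycling ATPase RLI2 had 609 and 689 P sites (WT), 770 and 589 (*hot3-2*), 582 and 611 (*dcl2 dcl4*), and 520 and 660 (*hot3-2 dcl2 dcl4*). Scaled for library size every carrier was above every non-carrier (log2 fold change 0.68, SE 0.08, adjusted p = 5.65e-11). The nonsense-mediated decay helicase UPF1 was 0.31 higher on the log2 scale (SE 0.10, adjusted p = 0.0149), a call lost in 28 nt footprints (0.38, adjusted p = 0.0576), without *dcl2 dcl4* replicate 2 (0.0529) and without *hot3-2 dcl2 dcl4* replicate 2 (0.0629).

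The release factor genes did not pass. The eRF1 genes had log2 fold changes of -0.32 (eRF1-1, adjusted p = 0.128), 0.11 (eRF1-2, 0.584) and -0.01 (eRF1-3, 0.983) in the voom test, and eRF3, the GTPase partner of eRF1, had 0.07 (adjusted p = 0.891). eRF1-1 passed without WT replicate 1 (0.0344) or without *dcl2 dcl4* replicate 1 (0.0302). RLI1, HBS1, UPF2 and UPF3 had adjusted p of 0.386 to 0.933, and PEL1, the Pelota homologue of ribosome rescue, had 0 to 7 P sites and was not tested. The median over the 10 tested was 0.11, against -0.01 over all genes. Between *dcl2 dcl4* and WT 0 of the 10 passed, beside 5.24% of all genes (2.36% higher and 2.89% lower), and RLI2 passed without WT replicate 2 (0.40, adjusted p = 0.0460).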

How the data were processed

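The authors digested inflorescence lysates with RNase I, depleted ribosomal RNA, selected footprints on a gel and, per the labels, used cutadapt and STAR. Their methods describe mapping to TAIR10 and P-site offsets set per length from RiboTaper metaplots. Mapping settings are spelled out for RNA-seq, and whether they made the deposited files, which hold further lengths, is not stated. The methods list an offset of 10 nt for 26 nt footprints, which 5 of the deposited libraries do not have. Each line of a deposited file is 1 footprint, given by transcript, both ends and P site as positions in nucleotides, so counts here are numbers of lines, with no molecular identifiers. In all libraries 28 nt footprints had their P site 12 nt from the first nucleotide. For 19 to 25 nt this offset ranged over 12 to 13 nt in 5 libraries and over 7 to 9 nt in both of *dcl2 dcl4* and *hot3-2 dcl2 dcl4* replicate 1. For 26 nt it was 12 nt in the former libraries and 10 nt in the latter. For 27 nt it was 12 nt in both WT libraries and *hot3-2* replicate 1, and 11 nt in the others.

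P sites were tallied per position (Python 3.11.15, numpy 2.4.6, pandas 2.3.3). Stop codons, products, symbols and sequences came from TAIR10.1, whose coding sequence length matched the files for 17717 of 17741 windows, 8020 of them with a symbol. Footprints of AT2G01021 and of organelle genes were left out. Library densities were compared by exact permutation, adjusted by Benjamini-Hochberg. Gene shares used a quasi-binomial model with limma 3.58.1 squeezeVar (R 4.3.3) on genes with a mean of at least 50 reference P sites (20 for 29 nt) and 1 region P site per library, and odds ratios with 0.5 added. Coding-sequence P sites used limma voom with median-of-ratios scaling, requiring 10 P sites in at least 2 libraries. As positions are not a count table, no negative binomial tool was used. Models were tested on simulated data.

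Named genes were the 12 with the largest last sense codon density, the 5 with the largest density at -38 to -32, the 5 with most window P sites, up to 3 per direction for each contrast (6 for the mean *hot3-2* effect) by adjusted p, and the 11 termination factors. RD22, COR47 and the 6 genes with most 20 nt footprints were added. The members and lists were chosen with earlier results of these data known. Alternatives were other lengths, references, length and count minimums, frame 0 P sites, thinning, a replicate block, offset sets and leaving out each library. Other lengths were added after seeing the data. Same-numbered replicates did not deviate together (correlations -0.0546 to 0.0985).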

Additional observations from a re-analysis of the deposited data

Results flagged for a closer look

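The density of 28 nt P sites at -38 to -32 was 0.919 in WT replicate 1, far from the other 3 non-carriers, which lay at 0.869 to 0.871. By construction the 95% limit of Dixon's test, used here, sets about 1 in 20 groups apart by chance.

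The 29 nt last sense codon share of FLA8, a fasciclin-like cell wall protein, differed between backgrounds in its response to *hot3-2* (interaction 3.80 on the log2 odds scale, limma-moderated quasi-binomial, adjusted p = 0.01003; 1 of 144 genes, 0.694%). It was 21.3% and 16.2% (WT), 19.3% and 6.91% (*hot3-2*), 2.56% and 3.28% (*dcl2 dcl4*), and 26.3% and 11.5% (*hot3-2 dcl2 dcl4*). The call was lost in 6 of the 8 fits without 1 library (adjusted p 0.0511 to 0.802): without WT replicate 1, either *hot3-2* library, either *dcl2 dcl4* library or *hot3-2 dcl2 dcl4* replicate 1.

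Footprints of 20 nt, which the 28 nt comparisons do not use, were 1.69 times as dense at the last sense codon in carriers as in non-carriers. Every carrier was above every non-carrier, which was the rule for flagging this value. Its adjusted p was 0.114 by exact permutation over 24 comparisons added after the data had been seen.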

How the results depend on the processing

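Ratios below are carriers over non-carriers, or libraries with *dcl2 dcl4* over those without, with exact permutation tests. The window ratio of carriers passed with 26 to 29 nt footprints (1.05), all lengths (1.08), coding sequences of 900 nt or more (1.07) and a mean of per-gene densities (1.11), each at an exact permutation p = 0.0286, as did -60 to -6 (1.03 with 26 to 29 nt, 1.06 at 900 nt or more) and -38 to -32 (1.07 at 900 nt or more). The last sense codon ratio no longer passed with 26 to 29 nt (1.13), all lengths (1.27), frame 0 (1.11), thinning (1.151), without the 10 genes with most window P sites (1.14), or within libraries with 12 to 13 nt offsets (1.12) or 7 to 9 nt offsets (1.18), where few libraries remain. With 26 to 29 nt and all lengths this ratio mixes genotype with the deposited offsets, which differ between libraries. Directions turned for the stop codon as a per-gene mean (0.954), and for *dcl2 dcl4* in the window with all lengths (1.00), at 900 nt or more (1.01), reference -300 to -100 (1.00), per-gene means (1.02) and 12 to 13 nt offsets (1.03), on the last sense codon at those offsets (1.06) and for 29 and 30 nt against the 28 nt reference (1.02 and 1.55). The cause was not tested.

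With the replicate block, whose smallest p is 0.0556, ratios stayed at 1.16 (last sense codon), 1.69 (20 nt), 0.684 (29 nt) and 0.702 (30 nt), and the counts between *hot3-2 dcl2 dcl4* and *hot3-2*, in 29 nt footprints between *dcl2 dcl4* and WT, and in their interaction were 0. Same-numbered libraries shared only a number.

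With 26 to 29 nt footprints, genes with a changed last sense codon share numbered 3 for the mean *hot3-2* effect, 7 (*hot3-2* against WT), 4 (that allele within *dcl2 dcl4*), 13 (*dcl2 dcl4* against WT), 4 (*hot3-2 dcl2 dcl4* minus *hot3-2*) and 1 (interaction), and window shares 15 (mean *hot3-2*), 36 (*dcl2 dcl4* against WT) and 4 (interaction). The 26 nt offset was 12 nt in WT, *hot3-2* and *hot3-2 dcl2 dcl4* replicate 2, and 10 nt in the other libraries. The 26 nt peak begins at -14. It falls on the stop codon at 12 nt and on the last sense codon at 10 nt. The last sense codon counts therefore mix genotype with P-site placement. For *hot3-2* against WT only the 27 nt offset differed, at 11 nt in *hot3-2* replicate 2 and 12 nt in the others. The 27 nt peak begins at -15 and falls on the last sense codon at either offset. With a minimum of 100 reference P sites 2 genes passed between *dcl2 dcl4* and WT, 0 between both lines with *hot3-2* and 1 in the interaction, and with 10 the first 2 were 1 and 0. After thinning the mean *hot3-2* effect and the interaction had 1 each, *hot3-2 dcl2 dcl4* against *hot3-2* 0, and window shares of *dcl2 dcl4* against WT 6. A minimum of 50 for 29 nt left 2. With 28 nt footprints 1330 and 356 genes changed in coding-sequence P sites (*hot3-2*, *dcl2 dcl4*), against 2361 and 703.

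Leaving out each library in turn, where the smallest p is 0.0571, gave carrier ratios of 1.01 to 1.03 (window), 1.13 to 1.19 (last sense codon), 1.63 to 2.16 (stop codon), 1.01 to 1.05 (-38 to -32), 1.00 to 1.01 (-60 to -6) and 1.63 to 1.77 (20 nt), and *dcl2 dcl4* ratios of 0.984 to 1.00 (window), 0.930 to 1.01 (last sense codon), 0.945 to 0.981 (-38 to -32), 0.648 to 0.733 (29 nt) and 0.672 to 0.740 (30 nt). Counts of genes were 1 to 4 (last sense codon, *dcl2 dcl4* against WT), 0 to 1 (*hot3-2* against WT, *hot3-2 dcl2 dcl4* against *hot3-2*, and the interaction), 7 to 23 (window, *dcl2 dcl4* against WT), 2 to 6 and 0 to 1 (29 nt, *dcl2 dcl4* against WT and interaction), and 1813 to 2249 and 226 to 774 (coding-sequence P sites, *hot3-2* and *dcl2 dcl4*). The stop codon density rests on 9 to 49 P sites a library.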
